A study of Mus musculus with 24 samples.

Results

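Eif4a2 and the other genes of the eIF4F translation initiation complex were followed in the inguinal fat of mice with and without a fat-specific knockout of the mineralocorticoid receptor. The set holds 10 of the 41388 genes counted. They are Eif4a2, its paralogs Eif4a1 and Eif4a3, and the eIF4F partners Eif4e, Eif4g1, Eif4g3, Eif4b and Eif4h. With them are Eif4g2, a relative of Eif4g1, and Rfc4, the gene next to Eif4a2. Eif4a2 was chosen because its level was higher in the knockout, and because it lies beside Adipoq, so its knockout-against-control values are a description and carry no test. The other 9 genes were chosen by position or function, and the question put to them was whether they moved in the opposite direction when Eif4a2 was higher. All 10 passed the filter on low counts.

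eIF4F assembles on the cap of an mRNA and brings the small ribosomal subunit to it. Eif4e encodes the cap-binding subunit, Eif4g1 and Eif4g3 the large scaffold subunits, and Eif4a1 and Eif4a2 interchangeable forms of the DEAD-box RNA helicase that unwinds the 5′ leader, a reaction that eIF4B and eIF4H stimulate. In mammals Eif4a1 is the form that growing cells use most, and the eIF4A2 protein has also been tied to mRNA repression through the CCR4-NOT deadenylase. Eif4a3 encodes a relative that works in the exon junction complex on spliced mRNA rather than in eIF4F, and Rfc4 encodes a subunit of the clamp loader that puts PCNA on DNA.

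The 24 RNA-seq libraries came from inguinal white adipose tissue, a fat pad under the skin of the groin, with 4 libraries in each of 6 groups. FMRKO mice, in which Cre recombinase under control of the adiponectin gene (AdipoqCre+) deletes a floxed Nr3c2 gene (MRflox/flox), were fed chow, fed a high-fat diet (HFD) or given corticosterone, and so were control mice, which carry the same floxed gene (MRflox/flox). All the mice were male. Corticosterone is the main glucocorticoid of the mouse, and its dose and vehicle, the fat content of the diet, the durations and the ages are not stated in the labels. Both treatments were compared with chow. Adiponectin is made by fat cells, so the receptor is left in the other cells of the pad, and neither the Cre line nor the genomic sequence its transgene carries is stated in the labels. Cre is named only for FMRKO mice. In every FMRKO-against-control difference, loss of the receptor and presence of the Cre transgene therefore cannot be told apart. The labels do not say that the 4 libraries of a group are 4 separate animals, and the p-values rest on the spread among these libraries. In bulk tissue, fewer cells of a type and less RNA per cell cannot be told apart.

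Libraries held 17925109 to 40427675 counts. Nr3c2, the targeted gene, had 11.3 to 25.8 CPM (counts scaled to library size, here after TMM scaling, which corrects for a few very abundant genes) in FMRKO chow libraries against 17.6 to 28.7 CPM in control chow libraries, which overlap. It had 12.7 to 15.7 against 18.5 to 25 CPM on HFD and 7.73 to 12.2 against 14.1 to 18.4 CPM with corticosterone. Neither pair overlaps, as for 2.37% and 4.93% of all genes tested. The log2 difference was -0.29 ± 0.20 (SE) on chow, -0.52 ± 0.20 on HFD and -0.66 ± 0.20 with corticosterone. Averaged over these conditions it was -0.49 ± 0.11 (edgeR adjusted p = 0.287), and Nr3c2 passed an adjusted p of 0.05 in none of these comparisons. The 8 adipocyte markers, Adipoq among them, were detected in all 24 libraries. Of the libraries, 6 were rich in lymph node markers (mean log2 CPM over the marker list above 3), namely FMRKO HFD 1 and 4, control HFD 1 and 4, and FMRKO chow 1 and 3, and 3 were rich in skeletal muscle markers, namely control HFD 3, FMRKO chow 5 and control corticosterone 2. The counts of calls between treatments are given also without these libraries.

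Eif4a2 (ENSMUSG00000022884) spans positions 23107444 to 23114136 of chromosome 16 on the plus strand (GRCm38, as the files give it), and Rfc4 (ENSMUSG00000022881) spans 23113943 to 23127737 on the minus strand. The 2 genes meet tail to tail and share 194 exonic bases, and Adipoq starts 32.4 kb further along. The labels do not say whether the counting used strand, so reads in those shared bases could have come from either gene. Eif4a1 lies on chromosome 11 at 69666936 to 69672423, Eif4e on chromosome 3 at 138526191 to 138557599 and Eif4g1 on chromosome 16 at 20668313 to 20692884. Processed pseudogenes and other near copies of at least 95% identity over 100 bases or more took few reads beside the genes themselves, with 876 counts on the copies of Eif4a1 against 136921 on Eif4a1, 217 against 22869 for Eif4e and 25 against 24312 for Eif4a3. Reads that fit both a gene and a copy make these 3 levels uncertain. The Eif4a2 sequence matched Gm4221, an antisense gene with 654 counts, over 104 bases.

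Because Eif4a2 moved in the opposite direction to Eif4a1 and Eif4g1 under the diet, the 250 bases before the RefSeq start of these 3 genes (GRCm38.p6) are set side by side. The windows are chr16:23107218-23107467 on the plus strand for Eif4a2, chr11:69672424-69672673 on the minus strand for Eif4a1 and chr16:20672477-20672726 on the plus strand for Eif4g1. Capitals mark E-boxes (CACGTG, the site that Myc-family and related factors bind) and CCAAT boxes (CCAAT), searched on both strands, and no E-box overlapped a CCAAT box.

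Eif4a2: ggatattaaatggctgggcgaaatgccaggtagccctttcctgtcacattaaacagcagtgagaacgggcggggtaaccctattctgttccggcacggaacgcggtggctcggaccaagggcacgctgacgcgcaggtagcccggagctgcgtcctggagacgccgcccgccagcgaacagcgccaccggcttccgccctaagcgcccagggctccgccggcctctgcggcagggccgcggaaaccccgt
Eif4a1: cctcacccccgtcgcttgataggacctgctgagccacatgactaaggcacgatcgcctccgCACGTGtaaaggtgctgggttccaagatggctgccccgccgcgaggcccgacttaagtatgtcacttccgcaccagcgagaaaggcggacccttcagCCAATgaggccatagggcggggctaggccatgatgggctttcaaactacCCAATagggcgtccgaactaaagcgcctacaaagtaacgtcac
Eif4g1: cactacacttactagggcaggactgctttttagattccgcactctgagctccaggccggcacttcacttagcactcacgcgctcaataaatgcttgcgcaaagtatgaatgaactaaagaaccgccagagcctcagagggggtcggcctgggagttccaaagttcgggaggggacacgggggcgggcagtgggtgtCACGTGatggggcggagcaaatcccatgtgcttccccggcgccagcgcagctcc

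The Eif4a2 window held neither motif, the Eif4a1 window 1 E-box and 2 CCAAT boxes, and the Eif4g1 window 1 E-box. An E-box stood in 6.02% and a CCAAT box in 33.8% of all 32851 promoter windows of that length. Of the other members with an entry, Eif4h also held 1 E-box, 1 of the 2 starts of Eif4e held 2 E-boxes and 1 CCAAT box, and Rfc4, Eif4a3, Eif4g3, Eif4b and the other Eif4e start held neither motif. A full glucocorticoid response element (AGAACA and TGTTCT with 3 bases between) was in none of the 11 windows of the 9 members matched, and in 0.00913% of all windows. A match or its absence describes these letters only.

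Eif4a2 was higher in FMRKO than in control fat in every condition. On chow its level was 285, 300, 275 and 268 CPM in FMRKO libraries and 201, 163, 198 and 176 CPM in control libraries. Every FMRKO library was above every control library. On HFD it was 204, 201, 180 and 205 CPM in FMRKO libraries and 129, 115, 127 and 131 CPM in control libraries, again with no overlap. With corticosterone it was 254, 265, 254 and 235 CPM in FMRKO libraries and 202, 155, 159 and 188 CPM in control libraries, and here too no control library reached the lowest FMRKO one. The fold of FMRKO over control was 1.53 on chow, 1.57 on HFD and 1.43 with corticosterone (log2 0.61 ± 0.09, 0.65 ± 0.09 and 0.52 ± 0.09, fitted value ± SE, as for all log2 differences here). Groups without overlap occurred for 3.2% of the 19717 genes tested on chow, 2.37% on HFD and 4.93% with corticosterone, and FMRKO above control in all 3 conditions for 0.0152%. These shares stand beside the values that chose Eif4a2 and add nothing to them.

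The size of the genotype difference was compared between conditions. Eif4a2 was chosen for its difference in these same libraries, and that choice may favour similar differences across conditions. Its p-values here are thus not independent of the choice. The FMRKO effect on HFD minus that on chow was 0.04 ± 0.12 on the log2 scale (edgeR quasi-likelihood, adjusted p = 0.937, 95% interval -0.216 to 0.292). With corticosterone minus chow it was -0.09 ± 0.12 (edgeR adjusted p = 0.976, 95% interval -0.349 to 0.159). Of the 10 genes, 0 passed in either of these comparisons with edgeR or DESeq2, as did 0% of all genes with edgeR, and 1 (Eif4h, 0.24 ± 0.12, edgeR adjusted p = 0.508) and 0 had an unadjusted p under 0.05, beside 9.83% and 5.94% of all genes.

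**Figure D1:**
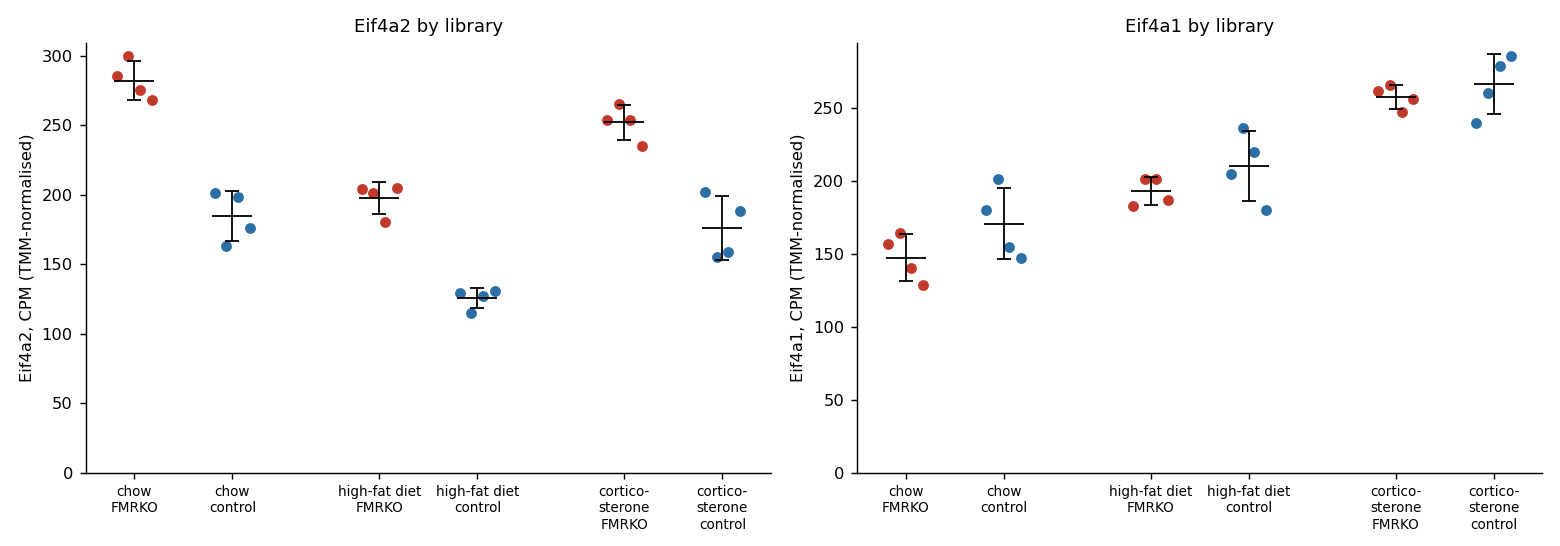
Levels of Eif4a2 (left) and Eif4a1 (right) in CPM after TMM normalisation, 1 point a library, FMRKO in red and control in blue within each condition, with the mean and SD of the 4 libraries in black. Eif4a2 sits at 180 to 300 CPM in FMRKO libraries with no overlap with the controls of the same condition, whereas Eif4a1 overlaps between genotypes in all 3 conditions.

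None of the other 9 genes was called between genotypes. In each of the 3 conditions and on average over them, 0 of 9 passed an adjusted p of 0.05 (Benjamini-Hochberg over all 19717 genes) with edgeR's quasi-likelihood test and 0 of 9 with DESeq2. The background was low as well, since 0.0101% of all genes tested were called on chow, 0.0101% on HFD, 0.00507% with corticosterone and 0.0355% on average, so these zeros are near the background. At an unadjusted p under 0.05 there were 3 on chow (Rfc4, Eif4a1 and Eif4h), 0 on HFD, 0 with corticosterone and 2 on average (Rfc4 and Eif4a1), while 11.9%, 3.96%, 4.28% and 6.66% of all genes were under it. The intervals below show how large a change the data leave possible.

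Eif4a1, the other helicase of the complex, was at 157, 164, 140 and 129 CPM in FMRKO and 180, 201, 155 and 147 CPM in control chow libraries. The groups overlap. It was at 183, 201, 201 and 187 CPM in FMRKO and 205, 236, 220 and 180 CPM in control libraries on HFD, and at 262, 266, 247 and 256 CPM in FMRKO and 240, 260, 279 and 286 CPM in control libraries with corticosterone. The log2 difference was -0.21 ± 0.10 on chow (edgeR adjusted p = 0.415), -0.12 ± 0.10 on HFD (edgeR adjusted p = 1) and -0.05 ± 0.10 with corticosterone (edgeR adjusted p = 1). Averaged over the conditions it was -0.13 ± 0.06 (edgeR adjusted p = 0.731) with an unadjusted 95% interval of -0.247 to -0.007.

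Eif4a3, the exon junction helicase, differed by -0.03 ± 0.05 averaged over the conditions (95% interval -0.122 to 0.066). The cap-binding Eif4e differed by -0.08 ± 0.06 (-0.202 to 0.039). Among the scaffolds, Eif4g1 differed by -0.12 ± 0.07 (-0.266 to 0.028) and Eif4g3 by -0.01 ± 0.04 (-0.087 to 0.074). Eif4g2, a relative that lacks the cap-binding protein's docking site, differed by -0.04 ± 0.06 (-0.158 to 0.088). The helicase cofactors Eif4b and Eif4h differed by 0.00 ± 0.04 (-0.081 to 0.089) and -0.05 ± 0.05 (-0.147 to 0.051). With corticosterone Eif4g1 was at 900, 891, 879 and 900 CPM in FMRKO and 956, 908, 934 and 993 CPM in control libraries, and Eif4g2 at 887, 880, 852 and 862 CPM in FMRKO and 939, 912, 935 and 982 CPM in control libraries. Neither pair overlaps, as for 2.49% of all genes that were lower without overlap there, and both had an edgeR adjusted p of 1 (log2 -0.09 ± 0.12 and -0.11 ± 0.10).

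**Figure D2:**
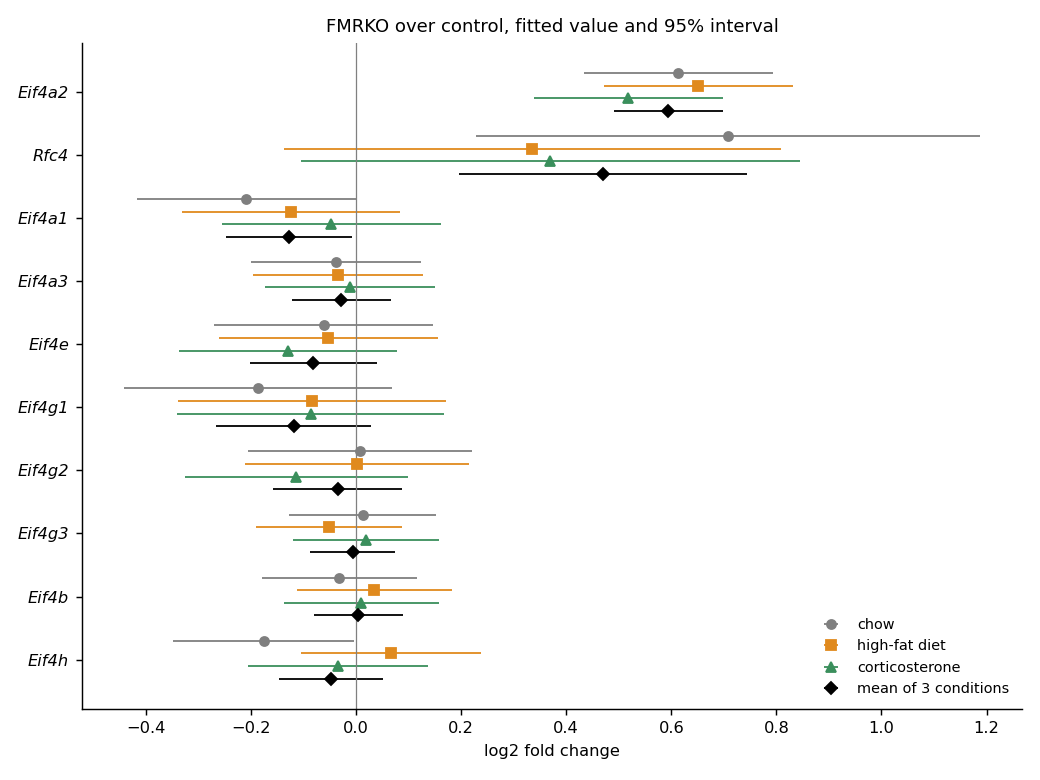
Fitted log2 fold change of FMRKO over control for the 10 genes on chow, on HFD, with corticosterone and averaged over the 3 conditions, with 95% intervals from the edgeR fit. Eif4a2, which was chosen on these values, and Rfc4 lie to the right of 0, and the other 8 genes lie between -0.21 and 0.07 in every condition.

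Rfc4 was low and noisy beside its neighbour, with 1696 counts in all 24 libraries against 134338 for Eif4a2. On chow it was at 3.07, 2.14, 3.36 and 2.08 CPM in FMRKO and 1.96, 1.54, 1.18 and 1.85 CPM in control libraries, which do not overlap. On HFD it was at 3.87, 2.92, 2.55 and 3.42 CPM in FMRKO and 2.35, 2.91, 2.95 and 1.91 CPM in control libraries, and with corticosterone at 3.24, 2.65, 2.53 and 3.64 CPM in FMRKO and 1.79, 2.15, 3.3 and 2.1 CPM in control libraries, and both pairs overlap. The log2 difference was 0.71 ± 0.23 on chow (edgeR adjusted p = 0.285), 0.34 ± 0.23 on HFD, 0.37 ± 0.23 with corticosterone and 0.47 ± 0.13 on average (edgeR adjusted p = 0.626, unadjusted 95% interval 0.196 to 0.745). Without the lymph node rich libraries (FMRKO chow 1 and 3, and HFD 1 and 4 of both genotypes) it was 0.38 on chow and -0.11 on HFD. These 2 values rest on the few libraries left in those groups. The part of lymph node RNA in the Rfc4 difference was not tested. Lymph node markers summed to 16.2 to 1000 CPM in FMRKO and 17.4 to 22.6 CPM in control chow libraries, and to 16.6 to 540 and 27.8 to 981 CPM on HFD. The part of reads from the bases shared with Eif4a2 in the Rfc4 count was not tested.

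The 18 tested genes within 400 kb of Eif4a2, of 27 annotated there, were checked for the same difference. Adipoq was at 1210 CPM in FMRKO and 1300 CPM in control fat on chow, at 1330 and 1290 CPM on HFD, and at 1540 and 1520 CPM with corticosterone, an average log2 difference of -0.01 ± 0.12. Kng1, the nearest tested gene on the other side, differed by -0.60 ± 0.98 and St6gal1 beyond Adipoq by 0.09 ± 0.20. Of the 17 other than Eif4a2, 0 passed on average over the conditions with edgeR, 2 with DESeq2 (B630019A10Rik and Gm15746) and 5 at an unadjusted p under 0.05. Of all genes, 0.0355% passed with edgeR and 6.66% had an unadjusted p under 0.05, and no such share is given for DESeq2. Among the 5 were Rfc4 and Dnajb11, and Dnajb11 went the other way (-0.12 ± 0.06). The highest values belonged to 3 noncoding genes beyond Adipoq, named here after their values were seen. Gm6630 and Gm15746, annotated as processed pseudogenes, lie within the span of the antisense gene B630019A10Rik, so the 3 are a single stretch. These were B630019A10Rik at 61.152 kb (1.47 ± 0.37, edgeR adjusted p = 0.416), Gm6630 at 65.42 kb (1.21 ± 0.37, edgeR adjusted p = 0.679) and Gm15746 at 82.959 kb (1.25 ± 0.27, edgeR adjusted p = 0.15). Their levels were low, at most 1.47 CPM on average in any group.

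**Figure D3:**
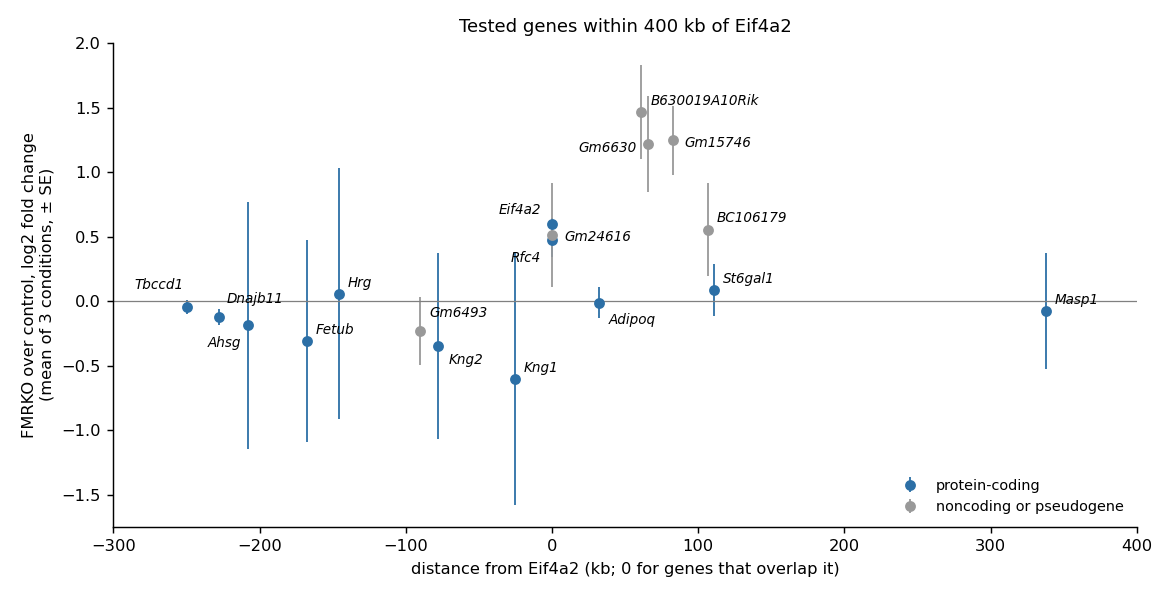
Log2 fold change of FMRKO over control, averaged over the 3 conditions, with its SE, for the 18 tested genes within 400 kb of Eif4a2, plotted by distance in kb along the chromosome (genes overlapping Eif4a2 at 0). Adipoq at 32.4 kb is near 0, Eif4a2 is at 0.59, and 3 low noncoding genes from a single stretch past Adipoq lie above 1.

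Per length (CPM per kilobase of exon), Eif4a2 stood at 1.56 ± 0.102 times Eif4a1 in FMRKO chow libraries and 0.895 ± 0.166 times in control chow libraries (SD, n = 4 each). The ratio was 0.834 ± 0.0835 in FMRKO and 0.492 ± 0.0807 in control fat on HFD, and 0.794 ± 0.0381 in FMRKO and 0.54 ± 0.0987 in control fat with corticosterone. By this measure Eif4a2 was the larger of the pair in the 4 FMRKO chow libraries (1.47 to 1.69) and near Eif4a1 in control chow libraries (0.659 to 1.04). It was the smaller in every treated library. In counts without lengths, Eif4a2 was above Eif4a1 in FMRKO HFD 1 and 4 (ratios of 1.12 and 1.1) and FMRKO corticosterone 3 (1.03). A ratio of 2 genes in 1 library does not depend on how libraries are scaled. It does depend on the exonic lengths, which include bases that only some transcripts carry. Reads that fit both Eif4a1 and a near copy could also change the ratio, and their number was not tested. The closest copy, Eif4a-ps4, matched Eif4a1 at 99.9% identity over 1218 bases and held 0 counts.

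The summed level of the pair was higher in FMRKO fat. It was 86.8 ± 6.19 CPM per kilobase in FMRKO and 73.9 ± 5.39 in control chow libraries, 81.5 ± 1.73 in FMRKO and 72 ± 4.49 in control libraries on HFD, and 107 ± 3.5 in FMRKO and 94.3 ± 4.98 in control libraries with corticosterone (SD, n = 4 each). FMRKO and control sums did not overlap in any condition. Since the sum contains Eif4a2, this is part of the same description and was not tested. In control fat the sum with corticosterone (89 to 101) was above that on chow (66.8 to 79.1), while Eif4a1 rose and Eif4a2 did not pass.

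**Figure D4:**
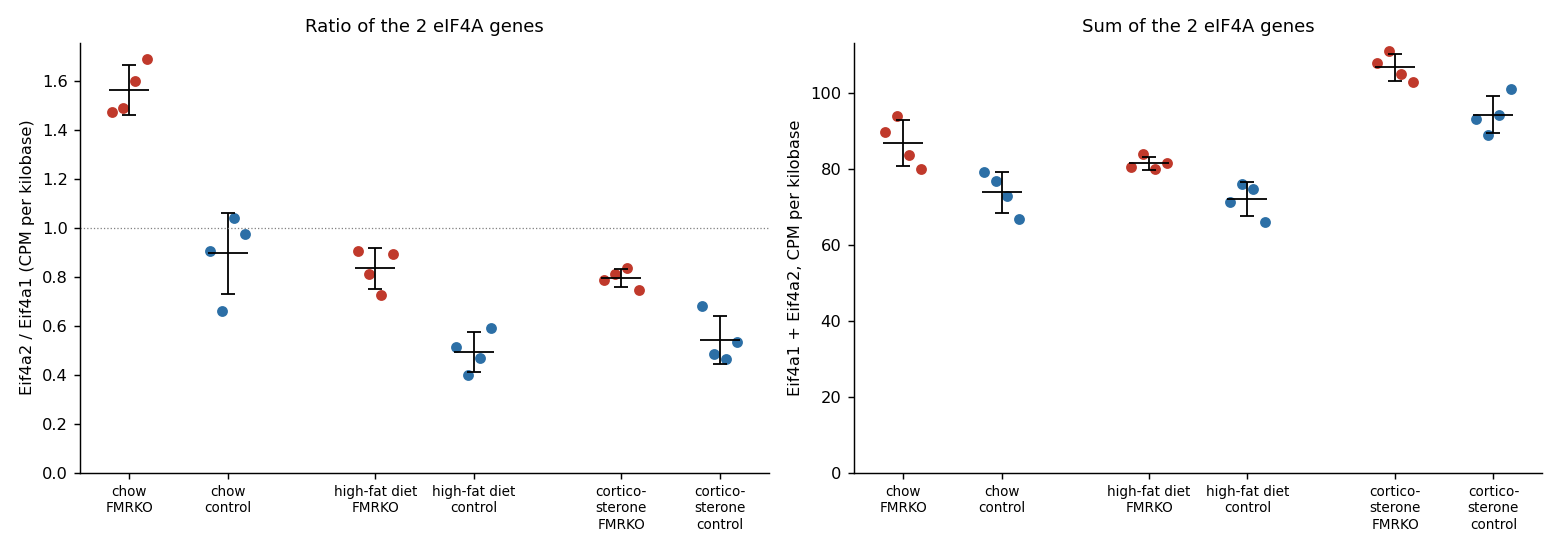
Ratio of Eif4a2 to Eif4a1 (left) and their sum (right), both from CPM per kilobase of exon, 1 point a library with mean and SD of 4 in black, FMRKO in red beside control in blue. The ratio is above 1 (dotted line) in all 4 FMRKO chow libraries, at 1.47 to 1.69, and below 1 in every library of the treated groups.

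Eif4a2 and Eif4b fell on HFD in both genotypes, while Eif4a1, Eif4a3, Eif4e and Eif4g1 rose. Eif4a2 averaged 197 ± 12.1 CPM on the diet and 282 ± 13.8 CPM on chow in FMRKO fat (log2 -0.51 ± 0.09, edgeR adjusted p = 2e-04), and 126 ± 6.97 CPM on the diet and 184 ± 18.2 CPM on chow in control fat (-0.55 ± 0.09, edgeR adjusted p = 8.9e-05). Eif4b, the helicase cofactor, fell with it, with 176 ± 14.2 CPM on the diet and 211 ± 10.6 CPM on chow in FMRKO fat (-0.26 ± 0.07, edgeR adjusted p = 0.011) and -0.32 ± 0.07 in control fat (edgeR adjusted p = 0.002). For both genes the diet and chow libraries did not overlap in either genotype, as for 22.4% of all genes in FMRKO and 23.2% in control fat. Both calls in FMRKO fat held under all 33 alternatives, as did that of Eif4a2 in control fat, while that of Eif4b in control fat held under 32. Of these alternatives, 24 each left out only 1 library, in some cases from a group outside the comparison.

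Eif4a1, Eif4a3, Eif4e and Eif4g1 rose on the diet in both genotypes. Eif4a1 rose by 0.39 ± 0.10 in FMRKO (edgeR adjusted p = 0.007) and 0.30 ± 0.10 in control fat (0.027), and Eif4e by 0.39 ± 0.10 (0.007) and 0.38 ± 0.10 (0.007). Eif4a3 rose by 0.27 ± 0.08 (0.015) in FMRKO and 0.26 ± 0.08 (0.015) in control fat. Eif4g1, the main scaffold, rose by 0.53 ± 0.12 (0.003) in FMRKO fat, where it was at 728, 814, 853 and 592 CPM on the diet against 469, 612, 467 and 528 CPM on chow, and by 0.42 ± 0.12 (0.013) in control fat. Its diet and chow groups overlap in both genotypes. Of the same 33 alternatives, Eif4g1 passed in 32 and Eif4e in 31 in each genotype, Eif4a1 in 30 in FMRKO and 21 in control fat, and Eif4a3 in 13 in FMRKO and 25 in control fat. In control fat the scaffold Eif4g3 (0.20 ± 0.07, 0.031) and Rfc4 (0.63 ± 0.23, 0.045) also rose, whereas in FMRKO fat the values were 0.13 ± 0.07 (0.159) and 0.26 ± 0.23 (0.451). That difference between genotypes had an edgeR adjusted p of 0.843 for Eif4g3 and 0.701 for Rfc4, and in control fat Eif4g3 passed in 9 and Rfc4 in 11 of the 33 alternatives. Eif4g2 (0.18 ± 0.10 in FMRKO, 0.19 ± 0.10 in control) and Eif4h (0.17 ± 0.08 in FMRKO, -0.07 ± 0.08 in control) did not pass.

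In count, 6 of 10 genes passed in FMRKO fat, 4 higher and 2 lower, and 8 of 10 in control fat, 6 higher and 2 lower. Of all genes tested, 24.4% passed in FMRKO fat (15.2% higher and 9.18% lower) and 29.2% in control fat (15.3% higher and 13.9% lower). The median log2 change was 0.22 over the 10 genes and -0.07 over all genes in FMRKO fat, and 0.23 and 0.01 in control fat. The counts rest on single libraries. Without FMRKO HFD 3 the first was 3. The second was 4 without control HFD 1, control HFD 2 or control chow 5, and 5 without control HFD 3, FMRKO corticosterone 4 or control corticosterone 2. Scaling also mattered, because without TMM factors the median of all genes moved by -0.29 in FMRKO and -0.19 in control fat, and 1 gene was then higher (Eif4g1) and 2 lower (Eif4a2 and Eif4b) in FMRKO fat and 1 higher and 3 lower (with Eif4h) in control fat. Over all genes tested, 62.4% of calls in FMRKO fat and 52.3% in control fat were higher, and without TMM factors 21.3% and 26.6% were. Eif4a2, Eif4b and Eif4g1 passed in the same direction under both scalings in both genotypes, whereas Eif4a1, Eif4a3 and Eif4e passed only with TMM factors, and Eif4a3 in FMRKO fat then had the opposite sign (-0.03). With only the 2 compared groups in the fit, 4 genes passed in FMRKO and 1 (Eif4a2) in control fat.

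In the labels only the chow titles have a number before the group name, and if that marks a separate handling it cannot be told apart from the treatments. Marker RNA also moved with the diet. Adipocyte markers summed to 14100 to 23700 CPM on the diet and 8600 to 15600 CPM on chow in FMRKO fat, and to 13600 to 24300 and 8530 to 17500 CPM in control fat, with 2 of 8 higher in each genotype. Endothelial markers passed as higher in 3 of 5 genes in each genotype (594 to 971 CPM summed on the diet and 480 to 619 on chow in FMRKO fat, 731 to 893 and 603 to 761 CPM in control fat). Lymph node markers passed as higher in 10 of 12 genes in control fat (27.8 to 981 CPM summed on the diet, 17.4 to 22.6 on chow) and in 0 of 12 in FMRKO fat. Muscle markers passed as lower in 8 of 10 genes in FMRKO fat (30.7 to 48.6 CPM on the diet, 8.06 to 14000 on chow) and in 0 of 10 in control fat. The 14000 CPM belonged to FMRKO chow 5. Without the lymph node rich libraries 6 genes of the set passed in FMRKO and 7 in control fat, and without the muscle rich libraries 4 and 5. Eif4a2 was among them each time. The part of adipocyte and endothelial RNA in these changes was not tested.

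With corticosterone the scaffolds, the cap-binding subunit and the other helicases rose, and Eif4a2 did not pass. Eif4a1 averaged 258 ± 8.1 CPM with corticosterone and 147 ± 15.9 CPM on chow in FMRKO fat (log2 0.81 ± 0.10, edgeR adjusted p = 4.6e-06), and 266 ± 20.8 and 170 ± 24.5 CPM in control fat (0.64 ± 0.10, edgeR adjusted p = 4e-05). Eif4e averaged 40.5 ± 2.35 and 26.3 ± 2.23 CPM in FMRKO fat (0.63 ± 0.10) and 44.4 ± 3.92 and 27.4 ± 4 CPM in control fat (0.69 ± 0.10). The scaffolds Eif4g1 and Eif4g3 rose by 0.78 ± 0.12 and 0.33 ± 0.07 in FMRKO fat and by 0.68 ± 0.12 and 0.32 ± 0.07 in control fat. Their relative Eif4g2 rose by 0.67 ± 0.10 in FMRKO and 0.79 ± 0.10 in control fat. Eif4a3 rose by 0.46 ± 0.08 and 0.44 ± 0.08. All 6 had an adjusted p of 0.00069 or below in both genotypes with edgeR, and their corticosterone and chow libraries did not overlap, as for 37.3% of all genes in FMRKO and 41.9% in control fat. Eif4a2 differed by -0.16 ± 0.09 in FMRKO (edgeR adjusted p = 0.137) and -0.07 ± 0.09 in control fat (0.554), though its FMRKO libraries with corticosterone (235 to 265 CPM) were all below those on chow (268 to 300 CPM), and with only the compared groups in the fit the FMRKO difference passed (-0.20, edgeR adjusted p = 0.0397). Eif4b differed by -0.04 ± 0.07 and -0.08 ± 0.07, Eif4h by 0.06 ± 0.08 and -0.09 ± 0.08, and Rfc4 by 0.18 ± 0.23 and 0.51 ± 0.23 (edgeR adjusted p = 0.078 in control fat).

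In count, 6 of 10 genes were higher and 0 lower in each genotype, against 20.2% of all genes higher and 20.9% lower in FMRKO fat and 20.2% higher and 22.7% lower in control fat (41.1% and 42.9% in either direction). The median was 0.40 over the 10 genes and -0.11 over all genes in FMRKO fat, and 0.47 and -0.12 in control fat. Eif4a1, Eif4e, Eif4g1 and Eif4g2 passed also without TMM factors, but Eif4a3 and Eif4g3 were then lost and Eif4a2 and Eif4h called lower in both genotypes, and the median of all genes moved by -0.24 and -0.21. Over all genes, 49.2% of calls in FMRKO and 47.2% in control fat were higher, and 26.8% and 29.2% without TMM factors. Adipocyte markers were also higher, with 5 of 8 passing in each genotype (summed 22500 to 26900 CPM with corticosterone and 8600 to 15600 CPM on chow in FMRKO, 24100 to 27400 and 8530 to 17500 CPM in control fat). Endothelial markers fell in 4 of 5 genes in control fat and in 2 of 5 in FMRKO fat, where 1 rose. In FMRKO fat 6 of 12 lymph node markers were lower (4.96 to 77.7 CPM summed with corticosterone, 16.2 to 1000 on chow). Muscle markers were lower in 9 of 10 genes there (23.6 to 77.6 CPM with corticosterone, 8.06 to 14000 on chow). The high chow sums came from FMRKO chow 1 and 3 for lymph node and FMRKO chow 5 for muscle markers. Macrophage markers were higher in 5 of 8 genes in FMRKO fat. The same 6 genes of the set passed also without the lymph node rich and without the muscle rich libraries in both genotypes. Rfc4 passed besides in control fat without the lymph node rich ones. The part of adipocyte RNA in these increases was not tested.

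**Figure D5:**
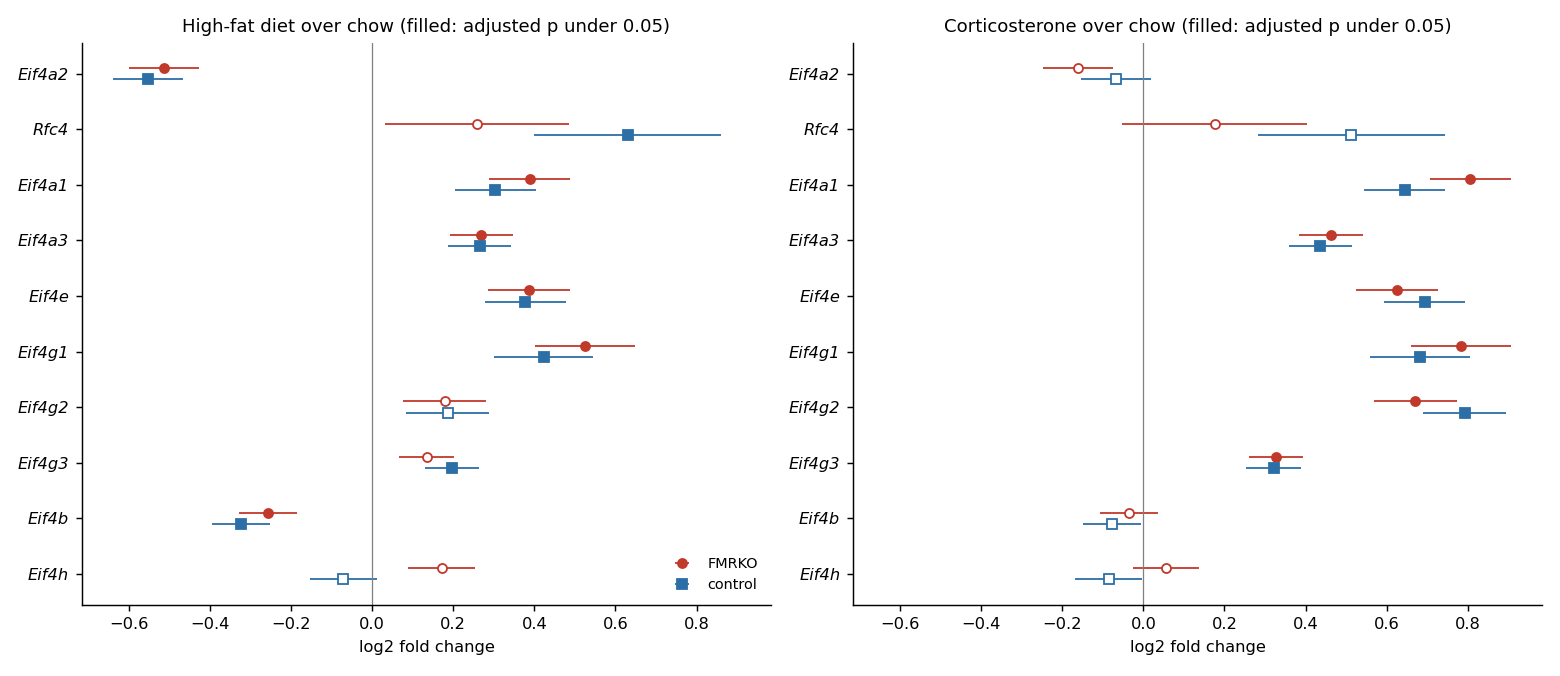
Log2 fold change (with SE) of HFD over chow (left) and corticosterone over chow (right) for the 10 genes, FMRKO in red circles and control in blue squares, filled where the edgeR adjusted p is under 0.05. Eif4a2 and Eif4b lie left of 0 on the diet while Eif4a1, Eif4a3, Eif4e and Eif4g1 lie right of it, and with corticosterone 6 genes are filled and right of 0 in both genotypes.

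Ordered by level per length, Eif4g1, Eif4g2 and Eif4h led the set and Rfc4 came last. The order depends on the exonic lengths, such as 5338 bases for Eif4a2, 4334 for Eif4a1 and 2425 for Eif4h. These lengths include bases that only some transcripts carry. In CPM, without lengths, Eif4h (194 ± 14.6) was near Eif4a2 (184 ± 18.2) in control chow libraries. In control chow libraries Eif4g1 was at 81.7 ± 7.73, Eif4h at 80.1 ± 6.01 and Eif4g2 at 74 ± 7.64 CPM per kilobase, levels within their spread of each other. Eif4b followed at 56 ± 2.93, then Eif4a1 at 39.3 ± 5.66 and Eif4a2 at 34.5 ± 3.4, whose ranges overlap. Eif4g3 at 15.5 ± 1.16 and Eif4a3 at 14.8 ± 1.49 overlapped, and Eif4e was lower at 9.51 ± 1.39 and Rfc4 at 1.06 ± 0.227 CPM per kilobase. Per length the cap-binding subunit was the least abundant mRNA of the core complex in each of the 6 groups, at 9.12 to 15.4 CPM per kilobase on average. In FMRKO chow libraries Eif4a2 at 52.8 ± 2.59 stood level with Eif4b at 54.7 ± 2.74 and above Eif4a1 at 34 ± 3.66 CPM per kilobase.

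Of 77 other genes in lists of initiation factors, their regulators and partners, 0 passed between genotypes in any condition with edgeR and 0 with DESeq2, and 8 on chow, 0 on HFD and 1 with corticosterone had an unadjusted p under 0.05, beside 11.9%, 3.96% and 4.28% of all genes. For the treatment counts that follow, 15.2% of all genes were higher and 9.18% lower on HFD in FMRKO fat, and 15.3% and 13.9% in control fat. With corticosterone 20.2% of all genes were higher and 20.9% lower in FMRKO fat, and 20.2% and 22.7% in control fat. On HFD 6 of 14 eIF3 subunits rose in FMRKO and 5 of 14 in control fat, with 0 lower. Eif3d (0.45 ± 0.10) rose by the most in FMRKO and Eif3e (0.36 ± 0.06) in control fat, but 0 and 2 subunits passed with only the compared groups in the fit. Without TMM factors 0 rose and 3 and 1 fell, so the direction of that family depends on the scaling. With corticosterone 10 of 14 rose in FMRKO and 12 of 14 in control fat (4 and 5 without TMM factors), among them Eif3l (0.68 ± 0.11 and 0.66 ± 0.11) and Eif3g (0.57 ± 0.08 and 0.56 ± 0.08). All 8 subunits of eIF2, which carries the initiator tRNA, and of its exchange factor eIF2B rose with corticosterone in both genotypes (6 and 7 without TMM factors), with Eif2b3 at 0.86 ± 0.16 in FMRKO and 0.98 ± 0.16 in control fat. On the diet 3 and 4 of the 8 rose, and without TMM factors 1 rose and 1 fell in FMRKO fat and 3 rose in control fat. Of 10 other initiation factors 9 rose and 1 fell with corticosterone in FMRKO fat and 9 rose in control fat. Eif1a, which helps the ribosome scan, had 1.54 ± 0.16 and 1.41 ± 0.16. Without TMM factors 5 rose and 1 fell in FMRKO fat and 7 rose and 1 fell in control fat. On the diet 5 and 3 of the 10 rose (1 and 2 without TMM factors, with 2 and 1 lower), Eif1a by 0.71 ± 0.16 and 0.84 ± 0.16.

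The counts of the smaller lists stand beside shares of all genes of 20.2% higher and 20.9% lower in FMRKO and 20.2% higher and 22.7% lower in control fat with corticosterone, and of 15.2% and 9.18% in FMRKO and 15.3% and 13.9% in control fat on the diet, and nothing particular to a list is read from them. Of 8 cap-binding homologues and eIF4E regulators, 4 rose and 1 fell with corticosterone in FMRKO fat and 3 rose and 1 fell in control fat, and on the diet 2 rose and 2 fell in FMRKO fat and 1 rose in control fat. Eif4ebp3, which encodes a protein that blocks eIF4E, rose with corticosterone by 2.22 ± 0.37 in FMRKO (8.93 CPM against 1.92 CPM on chow) and 1.83 ± 0.36 in control fat (5.92 against 1.66 CPM). On the diet it fell by 1.07 on the log2 scale in FMRKO fat (edgeR adjusted p = 0.039), to 0.909 CPM on the diet against 1.92 CPM on chow, and its difference in control fat was -0.79 ± 0.37 (0.114). Eif4e3 and Eif4e2, cap-binding homologues, rose with corticosterone by 0.69 ± 0.15 and 0.36 ± 0.06 in FMRKO and 0.59 ± 0.15 and 0.47 ± 0.06 in control fat. Of 6 poly(A)-binding proteins and eIF4A regulators, 1 rose and 1 fell with corticosterone in FMRKO fat and 3 rose in control fat, and 1 and 2 rose on the diet. Pdcd4, an inhibitor that binds eIF4A, fell by 0.81 on the log2 scale with corticosterone in FMRKO fat (edgeR adjusted p = 0.001), with -0.20 ± 0.18 in control fat (0.388). On the diet Pdcd4 had -0.01 ± 0.18 in FMRKO fat (edgeR adjusted p = 0.98) and rose by 0.61 in control fat (0.015). The difference between genotypes did not pass for either treatment (edgeR adjusted p = 0.808 with corticosterone and 0.481 on the diet). Of 7 mTORC1 and S6 kinase genes, 4 rose with corticosterone in FMRKO fat and 4 rose and 1 fell in control fat, and on the diet 3 rose and 2 fell in FMRKO fat and 1 rose and 2 fell in control fat. Deptor, an inhibitor of the mTOR kinase that controls eIF4E-binding proteins, rose with corticosterone by 1.13 ± 0.19 in FMRKO and 1.41 ± 0.19 in control fat. Of 12 CCR4-NOT genes 3 rose and 3 fell with corticosterone in FMRKO fat and 4 rose and 3 fell in control fat, with Cnot6l, a deadenylase, at -0.76 ± 0.15 and -0.66 ± 0.15. On the diet 2 rose and 1 fell in FMRKO fat and 3 rose and 1 fell in control fat. Of the 4 exon junction partners of Eif4a3, Magoh (0.45 ± 0.12 and 0.43 ± 0.12) and Rbm8a (0.38 ± 0.10 and 0.36 ± 0.10) rose with corticosterone, and on the diet 1 rose and 1 fell in FMRKO fat and 1 rose in control fat. Of 8 genes for clamp loaders and PCNA, the partners of Rfc4, 1 rose and 1 fell with corticosterone in FMRKO fat and 2 rose and 1 fell in control fat, and Pcna alone rose on the diet in both (0.55 ± 0.16 and 0.45 ± 0.16). The counts of these lists change with the scaling. Without TMM factors, on the diet in FMRKO fat, 0 eIF4E regulators rose and 3 fell, 0 poly(A)-binding and eIF4A regulators rose and 2 fell, 1 mTORC1 gene rose and 3 fell, and 0 CCR4-NOT genes rose and 7 fell. With corticosterone 0 CCR4-NOT genes then rose and 8 fell in FMRKO fat and 0 rose and 4 fell in control fat, 3 mTORC1 genes rose and 3 fell in each genotype, and 0 exon junction genes passed in either.

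Genes were ranked by how closely they followed Eif4a2 over the 24 libraries (Pearson r of log2 CPM, as a description). The 5 closest were Zfp949 (0.851), Hist2h2be (0.784), Clec2d (0.761), Gm5763 (0.75) and E230013L22Rik (0.75). With the condition means taken out they were Zfp949 (0.946), Gm11868 (0.853), Gsta4 (0.835), Gm13841 (0.753) and Tbp (0.74). Zfp949 was at 25.7, 25.1, 29.9 and 26.1 CPM in FMRKO and 9.99, 10.1, 9.55 and 9.25 CPM in control chow libraries, on another chromosome than Eif4a2. Within the set Eif4b was closest over all libraries (0.542, rank 465 of 19716) and Rfc4 with condition means taken out (0.539, rank 143), whereas Eif4a1 was at -0.495. The libraries share genotype and condition, so a high r may come from both genes differing between the same groups. Zfp949, Gm11868, Gsta4 and Gm13841 were called higher in FMRKO fat on average over the conditions (edgeR adjusted p = 1.1e-12, 6e-05, 0.003 and 0.003), beside 0.0254% of all genes. Their r with condition means taken out thus repeats, at least in part, the genotype contrast that chose Eif4a2.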

How the data were processed

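RNA was extracted from frozen tissue with TRIzol and a column kit and depleted of ribosomal RNA, per the labels' protocols. STAR 2.5.1a and featureCounts 1.4.6p-5 are named with the GRCm38 build in the submitters' processing notes, and the strand setting and annotation release were not stated in the labels or headers. The deposited file of each library gives a read count, a CPM and an RPKM value per gene, per the file headers. The authors' CPM and RPKM values could be recomputed from the deposited counts, so only the counts were used.

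Gene symbols were matched by Ensembl ID to GENCODE M21 (40254 of 41388 IDs, 97.3%). edgeR 4.0.16 (R 4.3.3) kept 19717 genes (filterByExpr, minimum count 10), scaled by TMM and fitted 1 mean per group over all 24 libraries with the quasi-likelihood test, two-sided, with Benjamini-Hochberg adjustment over all genes tested at 0.05. The biological coefficient of variation was 33.7%. The scripts were tested on simulated data. DESeq2 1.42.0, other scalings, filters, covariates, fits and left-out libraries were tried as alternatives, and those for the gene lists were chosen after seeing the data. Near copies were found with BLAST+ 2.17.0. The members and lists were chosen with earlier results of these data known. The 10 members are all named, and from the other lists up to 4 genes past the threshold with the largest change, while the likeness lists name the 5 highest correlations. By the correlation of deviations from group means, same-number libraries went together on HFD but not in the other comparisons. On HFD, FMRKO with control, 4 of 4 pairs were at 0.204 to 0.723, and 3 of 4 were best with their own number. HFD 1 and 4 of both genotypes were also the lymph node rich libraries on that diet. Paired samples and shared lymph node RNA therefore cannot be told apart there.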

Additional observations from a re-analysis of the deposited data

Results flagged for a closer look

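Of the 60 groups of 4 libraries (10 genes in 6 groups), 4 held a library far from the other 3 by Dixon's test on log2 CPM, where chance gives about 1 in 20. Eif4a2 was at 180 CPM in FMRKO HFD library 3, against 201 to 205 CPM in the other FMRKO libraries on that diet. Eif4a3 was at 37.9 CPM in control corticosterone library 1 and at 43.8 to 44 CPM in the others. Eif4e was at 23 CPM in FMRKO chow library 3 and at 27.1 to 27.7 CPM in the others. Eif4h was at 172 CPM in control chow library 5 and at 199 to 203 CPM in the others.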

How the results depend on the processing

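None of the other 9 members was called between genotypes under any alternative run, and the Eif4a2 log2 difference over the left-out libraries was 0.579 to 0.654 on chow, 0.61 to 0.696 on HFD and 0.439 to 0.571 with corticosterone. Without the lymph node rich libraries it was 0.632, 0.64 and 0.52 in these conditions, and without the muscle rich ones 0.665, 0.647 and 0.439. The number of genes called on HFD in FMRKO fat was 6, but 3 without TMM factors, and 3 to 7 over the left-out libraries. In control fat it was 8, but 4 without TMM factors, 4 without a filter on low counts, 5 without the muscle rich libraries, 1 with only the compared groups in the fit, and 4 to 8 over the left-out libraries. With the replicate number as a block it was 5 in control fat, and the block changed no other count of members called by over 1.5 times. Between genotypes the block changed no call, and with a block over the HFD libraries alone, chosen after seeing the data, 0 of the other 9 passed and Eif4a2 differed by 0.651. For HFD against chow, same-number pairs correlated at -0.275 to 0.589 in FMRKO fat (1 of 3 best with its own number) and at -0.067 to 0.138 in control fat (2 of 3), so the samples share only a number there. With corticosterone the counts were 6 to 6 in FMRKO and 6 to 7 in control fat over the left-out libraries. Without gene lengths the ratio of Eif4a2 to Eif4a1 was 1.92 in FMRKO and 1.1 in control fat on chow, 1.03 and 0.606 on HFD, and 0.978 and 0.666 with corticosterone.

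Signs turned without TMM factors on HFD in FMRKO fat for Rfc4 (-0.036), Eif4a3 (-0.032), Eif4g2 (-0.117), Eif4g3 (-0.163) and Eif4h (-0.124), in control fat for Eif4g2 (-0.024), with corticosterone in FMRKO fat for Rfc4 (-0.088) and Eif4h (-0.186), and in the Eif4a2 difference of the FMRKO effect on HFD (-0.061). They turned without the lymph node rich libraries for Rfc4 between genotypes on HFD (-0.107), Eif4h on the diet in control fat (0.012) and Eif4b with corticosterone in FMRKO fat (0.037). With lymph node and muscle covariates they turned for Eif4h on the diet in control fat (0.063), and for Eif4b (0.028) and Eif4h (-0.078) with corticosterone in FMRKO fat. Without the muscle rich libraries Eif4a2 turned with corticosterone in control fat (0.018) and in the difference of the FMRKO effect on the diet (-0.018). Over the left-out libraries these 2 Eif4a2 values ran from -0.112 to 0.019 and from -0.029 to 0.072. The cause was not tested. Low counts limit the precision for Rfc4, with 1696 in all libraries together.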
